A study of Homo sapiens with 4 samples.

Results

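UPF1 and 8 other core factors of nonsense-mediated RNA decay (NMD) were followed in human embryonic stem cells after an siRNA against UPF1. The genes were picked by symbol from the deposited table, in which all 9 (UPF1, UPF2, UPF3A, UPF3B, SMG1, SMG5, SMG6, SMG8 and SMG9) had a row among 15942 genes. All 9 passed the filter on low counts, which kept 15557 genes. The cells were H9, an established human embryonic stem cell line grown on Matrigel in E8-supplemented medium. The control group, siLuc, had received an siRNA to luciferase, a gene that human cells lack, and the other group, siUPF1, an siRNA against UPF1. Each group had 2 libraries, and the study asked how gene expression changes when UPF1 is lost. The treatment text common to all libraries names an siRNA against UPF3A and a time course after actinomycin D, a blocker of transcription, without saying which time a library stands for. The labels do not say whether libraries of a group are separate cultures, so p-values reflect no more than the differences among these 4 libraries, and these can be technical.

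NMD destroys mRNAs on which the ribosome stops too early, and it also sets the level of many normal mRNAs. UPF1, an RNA helicase, is its central factor. UPF2 and the paralogs UPF3A and UPF3B link UPF1 to exon junction complexes, the protein marks left on mRNA by splicing. The kinase SMG1, held in a complex with SMG8 and SMG9, phosphorylates UPF1, and phosphorylated UPF1 recruits SMG5, an adaptor, and SMG6, an endonuclease that cuts the mRNA near the stop codon. Transcripts of several of these factors are known in other human cells to be NMD substrates themselves, which makes the pathway a feedback loop.

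Depth ranged from 8887239 to 11200973 counts per library. The control libraries have one name in the table and are labelled control a and control b here. Levels are given in CPM, counts scaled to a common total of 1e+06 after TMM normalization, and in CPM per kilobase of transcript where genes are compared with each other. The stem cell label was checked against 10 pluripotency markers, all of which were tested and stood between 98.9 (NANOG) and 416 CPM (DNMT3B) in the controls. Their summed level was 2072 to 2214 CPM in the controls and 1785 to 1920 CPM in the siUPF1 libraries, and 6 of 10 fell (adjusted p under 0.05, by the quasi-likelihood test of edgeR), where 9.14% of all genes tested fell and 16.8% rose. These 10 markers had 0.444 to 0.888 reads per transcript base, against a median of 0.166 over all genes. Whether their falls remain once a trend on reads per base is removed is not given here. Of 15 markers of differentiated cells, 6 were tested, and 9 had no row in the deposited table under the symbol used and could not be checked. The summed level of the 6 was 184 to 190 CPM in the controls and 195 to 197 CPM after UPF1 siRNA. COL1A1 made up most of that sum at 158 CPM in the controls, and of the 6 tested, 1 rose (GATA3) and 2 fell (FOXA2 and MIXL1) by the same test. The part of these marker shifts in the results on NMD factors was not tested.

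Some of the factors have close relatives in the genome, and the sequences show how far reads can tell them apart. SMG1 lies on chromosome 16 and has several pseudogene copies. Over the longest alignment of its coding sequence with the pseudogene transcript SMG1P1, 4130 of 4233 aligned bases were identical (97.6%). A stretch of 100 bases is shown from each, coding in SMG1, 5′ to 3′, from GENCODE release 29 transcripts. The 2 differing bases are in capitals (bases 987 to 1086 of the SMG1 transcript and 571 to 670 of the SMG1P1 transcript).
SMG1: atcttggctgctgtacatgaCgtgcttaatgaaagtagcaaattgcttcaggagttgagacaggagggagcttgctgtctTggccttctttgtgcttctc
SMG1P1: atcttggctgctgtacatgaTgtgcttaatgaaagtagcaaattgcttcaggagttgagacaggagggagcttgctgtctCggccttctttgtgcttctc
A read from between the capitals fits both genes equally well. The paralogs UPF3A, on chromosome 13, and UPF3B, on chromosome X, are far less alike. Their coding sequences matched at 436 of 641 aligned bases (68%), and their most similar gap-free stretch of 100 bases still held 24 differences, shown in capitals (bases 391 to 490 of the UPF3A transcript and 354 to 453 of the UPF3B transcript).
UPF3A: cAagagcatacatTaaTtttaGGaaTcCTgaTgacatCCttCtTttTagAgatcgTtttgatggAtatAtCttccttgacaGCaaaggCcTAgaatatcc
UPF3B: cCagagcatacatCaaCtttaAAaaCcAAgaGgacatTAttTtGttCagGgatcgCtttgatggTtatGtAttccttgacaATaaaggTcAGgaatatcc
No stretch of 50 bases of the UPF3B transcript occurred in any other gene's transcript, so the UPF3B and UPF3A values are separate measurements. Of the 50-base stretches of UPF3A itself, 42.1% also occurred in transcripts of its pseudogenes UPF3AP1, UPF3AP2 or UPF3AP3. For SMG1 the shared part was 18.9%. UPF1, UPF2 and SMG5 shared none, and SMG9 shared 0.165%. SMG6 shared 29.6%, nearly all with transcripts annotated to HIC1, and SMG8 shared 11.7% with the transcript AC099850.2. Both strands were searched, so a shared stretch can lie on the strand opposite to the other transcript. HIC1, AC099850.2, UPF3AP1, UPF3AP2 and UPF3AP3 have no row in the deposited table, unlike SMG1P1, SMG1P2, SMG1P3, SMG1P5 and SMG1P7. The sources used here do not give how reads that fit several genes were counted, so the values of UPF3A, SMG6, SMG1 and SMG8 are uncertain to that extent.

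UPF1, the siRNA target, was lower in both siUPF1 libraries. It was counted 1936 times in control a and 2053 times in control b, against 608 times in siUPF1 replicate 1 and 878 times in replicate 2. In CPM this was 219 and 205 in the controls and 60.8 and 78.2 after UPF1 siRNA. The groups did not overlap, and the siUPF1 libraries lay far below both controls while differing from each other. The mean fell from 212 ± 10.1 to 69.5 ± 12.3 CPM (SD, n = 2 in each group), so that 32.8% of the control level remained. UPF1 changed by -1.60 on the log2 scale (SE 0.07, 95% interval -1.75 to -1.46, adjusted p = 1.06e-102, by edgeR's quasi-likelihood test, adjusted over all genes tested by the Benjamini-Hochberg method). Only 0.174% of genes tested had a lower log2 fold change.

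The knockdown was unequal in the siUPF1 libraries. Replicate 1 kept 28.7% of the control mean of UPF1 and replicate 2 kept 36.9%. The coefficient of variation of UPF1 between them was 17.7%, where counting error alone gives 4.06% and 3.37%. Between the controls it was 4.74%, with a counting error of 2.27% and 2.21%. Among the other 8 factors no coefficient of variation in the siUPF1 group exceeded 5.70% (UPF2). Leaving out replicate 1 gave UPF1 a log2 fold change of -1.44 and leaving out replicate 2 gave -1.80.

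**Figure D1:**
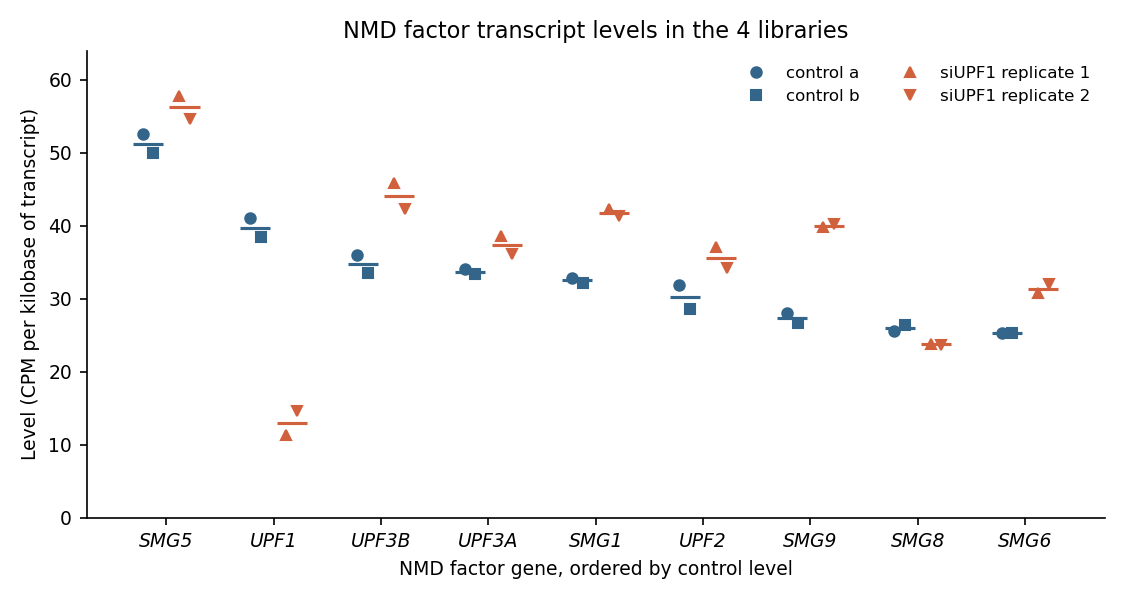
Transcript levels of the 9 NMD factors in CPM per kilobase of transcript (vertical axis, linear from 0) in each of the 4 libraries. Points are libraries and bars are group means. UPF1 drops from 39.8 to 13.0, SMG8 lies slightly lower, and both siUPF1 points of every other factor lie above both control points.

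Of the other 8 factors 7 stood higher after UPF1 siRNA by small amounts, 5 of them past the test, and SMG8 stood lower. At an adjusted p of 0.05, UPF2, UPF3B, SMG1, SMG6 and SMG9 rose, none fell, and UPF3A, SMG5 and SMG8 did not pass (edgeR quasi-likelihood test). By DESeq2 4 rose and none fell. Of all genes tested, 16.8% rose and 9.14% fell at this threshold (8.35% and 3.05% by DESeq2). The median log2 fold change of the 8 was 0.27, against -0.01 over all genes tested. For 7 of the 8 each siUPF1 library exceeded each control, and for SMG8 each lay below. Among all genes tested 32.3% lay above and 31.1% below in this way. With control b left out fewer of the 8 passed upward, and their median log2 fold change was 0.22, against -0.01 over all genes.

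**Figure D2:**
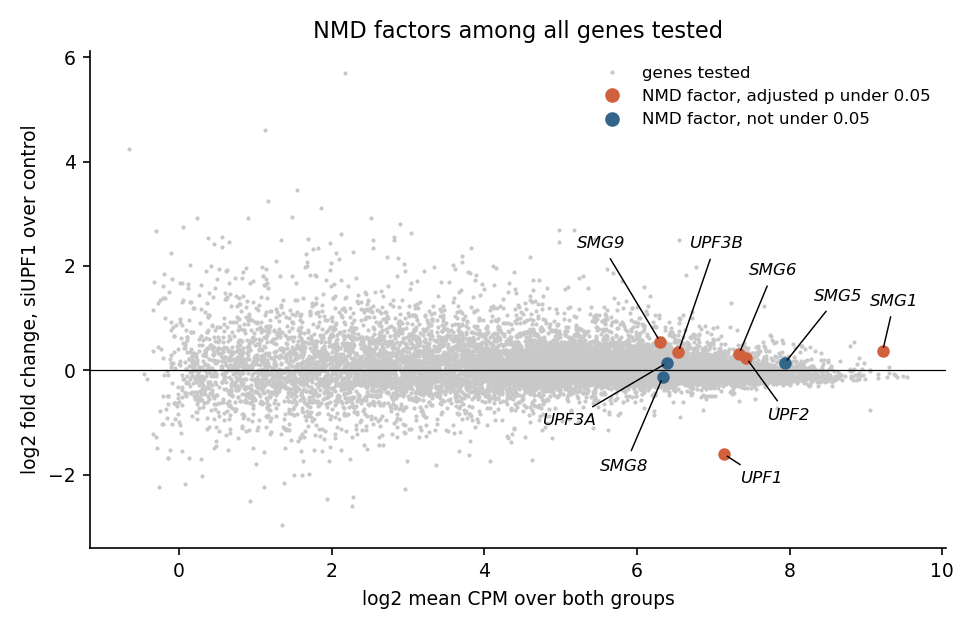
Log2 fold change of siUPF1 over control (vertical axis) against log2 mean CPM (horizontal axis) for the 15557 genes tested (grey) and the 9 NMD factors (coloured). UPF1 lies at -1.60, below every other gene at a mean of 50 CPM or more, while the other 8 lie between -0.13 and 0.55.

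Of the bridging factors, UPF2 had 167 and 150 CPM in controls a and b and 194 and 179 CPM in siUPF1 replicates 1 and 2. The siUPF1 libraries were higher, and the nearest values of the groups, 167 and 179, lay closer together than the controls did to each other. The mean rose from 158 ± 12.0 to 187 ± 10.6 CPM (SD, n = 2 in each group), with a log2 fold change of 0.24 (SE 0.07, adjusted p = 0.00476, edgeR quasi-likelihood test). This call was lost in DESeq2 (adjusted p = 0.0653), without siUPF1 replicate 1 (adjusted p = 0.0538) and without control b, where UPF2 stood at 0.15 (adjusted p = 0.343, edgeR quasi-likelihood test), the adjusted p running from 0.000652 to 0.343 over 11 alternatives.

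UPF3B, the paralog with the stronger known NMD activity, had 85.0 and 79.1 CPM in the controls and 108 and 100 CPM after UPF1 siRNA. The groups were well apart. Its mean rose from 82.0 ± 4.14 to 104 ± 5.87 CPM (SD, n = 2 in each group), with a log2 fold change of 0.35 (SE 0.07, adjusted p = 3.91e-05, edgeR quasi-likelihood test). Without control b the adjusted p was 0.0533 in the same edgeR quasi-likelihood test, the highest of a range that began at 2.46e-06.

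UPF3A, known as a weak activator or in some settings an antagonist of NMD, had 80.9 and 79.1 CPM in the controls and 91.7 and 85.7 CPM in the siUPF1 libraries. The siUPF1 values were higher by less than those of UPF3B. UPF3A stood at 0.15 (SE 0.08, 95% interval 0.00 to 0.30) and did not pass (adjusted p = 0.135, edgeR quasi-likelihood test). It passed without siUPF1 replicate 2 (adjusted p = 0.0497) and after removal of a trend on read density (adjusted p = 0.0405, edgeR quasi-likelihood test). Over 11 alternatives its adjusted p ran from 0.0405 to 0.494.

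By these counts the paralogs were nearly equal in the controls and less so after UPF1 siRNA. Of the 50-base stretches of UPF3A 42.1% were shared with pseudogene transcripts, and no stretch of UPF3B was shared. Their ratio therefore depends on how shared reads were counted, which is not known here. Per kilobase, UPF3B stood at 1.05 and 1.0 times UPF3A in controls a and b and at 1.19 and 1.17 times in siUPF1 replicates 1 and 2. The ratio was higher in both siUPF1 libraries, a difference of 0.20 on the log2 scale. An exact permutation test of 2 libraries against 2 cannot give a two-sided p below 0.333, and that is the p here, so that the difference between the paralogs is a description of these libraries.

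The kinase complex changed unevenly. SMG9, a regulatory partner of the SMG1 kinase, had 65.7 and 62.7 CPM in the controls and 93.3 and 94.3 CPM after UPF1 siRNA. Libraries within a group nearly coincided and the groups were far apart. The mean rose from 64.2 ± 2.18 to 93.8 ± 0.706 CPM (SD, n = 2 in each group), or to 146% of control, a log2 fold change of 0.55 (SE 0.08, adjusted p = 4.75e-11, edgeR quasi-likelihood test). It was the largest rise among the 9 factors, and 92.3% of all genes tested had a lower log2 fold change. SMG9 passed in all 11 alternatives, at log2 fold changes from 0.51 to 0.58.

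SMG1, the kinase itself, had 527 and 515 CPM in the controls and 677 and 663 CPM in the siUPF1 libraries. The siUPF1 values were close to each other and well above the controls. The mean rose from 521 ± 8.18 to 670 ± 10.2 CPM (SD, n = 2 in each group), with a log2 fold change of 0.36 (SE 0.07, adjusted p = 1.19e-05, edgeR quasi-likelihood test). SMG1 passed in all 11 alternatives, the highest adjusted p being 0.014 without control b and the lowest 3.14e-07 in DESeq2.

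SMG1 pseudogenes rose beside SMG1. The table lists 5 of them, looked at after their values were seen. SMG1P1 had 144 and 140 CPM in the controls and 184 and 183 CPM after UPF1 siRNA. SMG1P2 had 122 and 123 CPM in the controls and then 160 and 158 CPM, and SMG1P3 had 151 and 145 CPM and then 195 and 198 CPM. Relative to control these 3 stood at 129%, 130% and 133%, next to 129% for SMG1.
Their log2 fold changes were 0.37, 0.38 and 0.41 (SE 0.07 each, adjusted p = 2.34e-06, 1.59e-06 and 1.26e-07, edgeR quasi-likelihood test). SMG1P5, at 3.37 CPM in the controls, rose by 1.18 (SE 0.23), and SMG1P7 stood at 0.21 (SE 0.14) and did not pass. Together the 5 pseudogenes had 436 and 428 CPM in the controls and 565 and 567 CPM after UPF1 siRNA, a sum nearly as large as SMG1 itself. With the copies added, SMG1 stood at 130% of control. How much of either rise came from reads of the other was not tested.

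**Figure D3:**
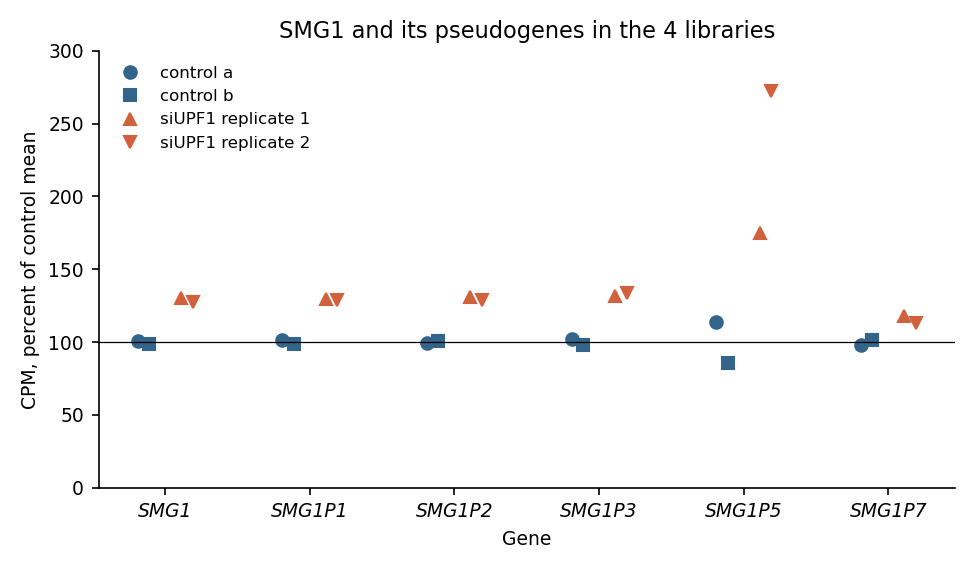
CPM of SMG1 and 5 of its pseudogenes in each library as percent of the control mean (vertical axis, linear from 0). SMG1, SMG1P1, SMG1P2 and SMG1P3 lie near 130% in both siUPF1 libraries, whereas SMG1P5, counted at few reads, is spread from 175% to 272%.

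SMG8, the third member of the complex and an inhibitor of the kinase, did not share this pattern. It had 83.3 and 85.8 CPM in the controls and 77.5 and 77.2 CPM in the siUPF1 libraries, so that its siUPF1 values were the lower ones. SMG8 stood at -0.13 (SE 0.08, 95% interval -0.28 to 0.02, adjusted p = 0.216, edgeR quasi-likelihood test) and did not pass. With the trend on read density removed it fell by 0.16 on the log2 scale (adjusted p = 0.0384, edgeR quasi-likelihood test), the lowest of 12 alternatives that ended at 0.54. Per kilobase, SMG9 stood at 1.10 and 1.01 times SMG8 in the controls and at 1.67 and 1.70 times in the siUPF1 libraries. The size of this ratio rests on an SMG9 length of 2345 bases, where the annotated transcript found has 5510. Its change between the groups does not depend on that length. SMG1 went from 1.29 and 1.22 times SMG8 to 1.78 and 1.74 times. The groups do not overlap in either ratio, and as above 0.333 is the smallest p an exact permutation test allows.

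Of the factors that act on phosphorylated UPF1, the endonuclease gene SMG6 had 144 CPM in both controls and 175 and 183 CPM after UPF1 siRNA. The controls were almost identical and the siUPF1 libraries clearly higher. The mean rose to 179 ± 5.27 CPM (SD, n = 2), a log2 fold change of 0.31 (SE 0.07, adjusted p = 0.000126, edgeR quasi-likelihood test). SMG6 passed in all 11 alternatives, with log2 fold changes from 0.28 to 0.34, and the part of reads shared with HIC1 transcripts in this rise was not tested. SMG5, the adaptor, had 239 and 227 CPM in the controls and 263 and 249 CPM in the siUPF1 libraries. Its siUPF1 values were higher, the nearest pair being 239 and 249. SMG5 stood at 0.13 (SE 0.07, 95% interval -0.01 to 0.27) and did not pass (adjusted p = 0.156, edgeR quasi-likelihood test). It rose after removal of the read-density trend, where it stood at 0.21 (adjusted p = 0.00414, edgeR quasi-likelihood test), while the adjusted p of the other 10 alternatives reached 0.61.

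Read density differed between the factors and bears on those values. Averaged over libraries, SMG5 had 0.539 reads per transcript base, the highest of the 9, and SMG8 had 0.249, the lowest. UPF1 had 0.257, and the median over all genes was 0.166. Among genes with at least 100 counts none had more than 1.12 reads per base. The 10 most counted genes held 0.643% to 0.693% of a library's counts, and the highest control mean of any gene tested was 776 CPM. Whether counts of dense genes are flattened was not tested, so levels, their order and percents of control describe the deposited counts. With a trend on read density removed from each library, 2156 genes rose and 2068 fell, against 2613 and 1422 without it, so that risers made up 51.0% of calls in place of 64.8%. Under that correction 7 of the 8 factors rose and SMG8 fell (13.9% of all genes tested rose and 13.3% fell), with a median of 0.27 for the 8 as before. UPF1 stood at -1.63 (adjusted p = 4.55e-05, edgeR quasi-likelihood test), the highest adjusted p of its 11 alternatives, which began at 3.03e-101.

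The unequal knockdown had no uniform counterpart in the other factors. Relative to the control mean, 6 of the 8 stood higher in siUPF1 replicate 1, which kept less UPF1, than in replicate 2. The difference was largest for UPF3B, at 132% and 122%, and for UPF2, at 123% and 113%. It was small for SMG1 (130% and 127%) and for SMG8 (91.7% and 91.4%). SMG6 (121% and 126%) and SMG9 (145% and 147%) stood higher in replicate 2. Summed levels ran the same way outside the 8 factors. The 30 other pathway genes had 4098 CPM in replicate 1 and 3914 CPM in replicate 2. The 10 pluripotency markers had 1920 and 1785 CPM. Standing higher in replicate 1 was thus not particular to the NMD factors, and its share over all genes tested is not given here. With 1 library on each side these differences have no test.

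**Figure D4:**
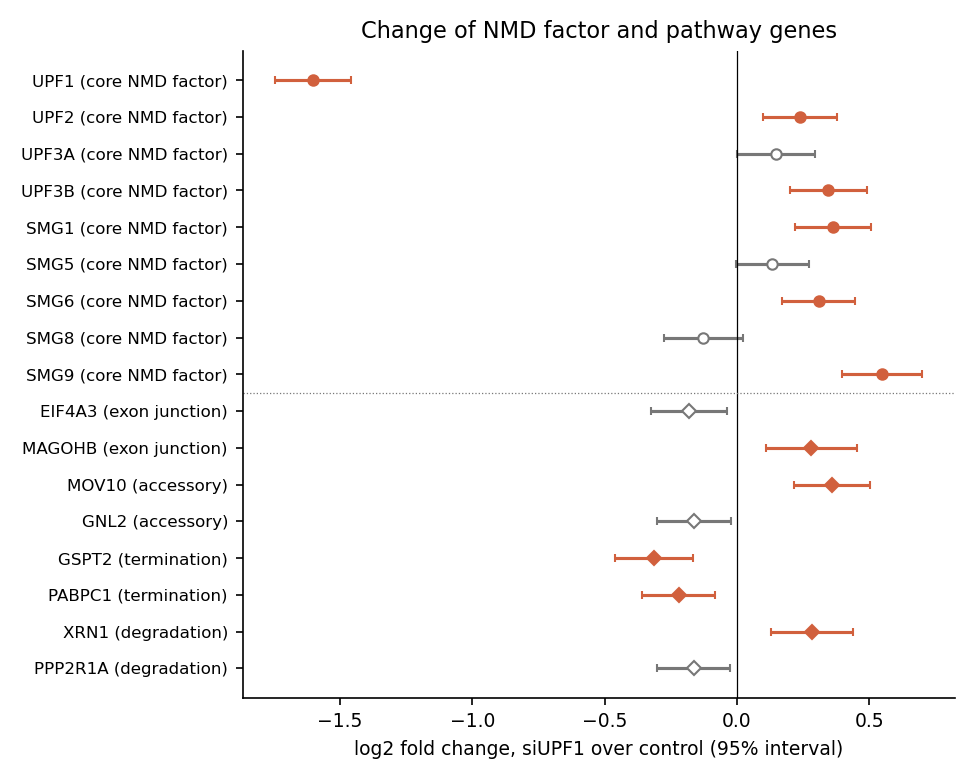
Log2 fold change of siUPF1 over control (horizontal axis) with its 95% interval for the 9 NMD factors (circles) and for 8 other pathway genes (diamonds). Filled orange symbols mark an adjusted p under 0.05. UPF1 lies at -1.60, and SMG9 lies highest at 0.55.

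The order of transcript levels changed with the knockdown. In the controls SMG5 was highest at 51.3 ± 1.79 CPM per kilobase, followed by UPF1 at 39.8 ± 1.89 (SD, n = 2 each). UPF3B (34.7), UPF3A (33.7), SMG1 (32.5), UPF2 (30.2), SMG9 (27.4), SMG8 (26.0) and SMG6 (25.4) followed in CPM per kilobase. SMG5 and UPF1 each stood apart from the next gene by more than 2 SD, as did UPF3A from SMG1. Both UPF3A and SMG1 share stretches with pseudogenes, so the gap between them depends on how shared reads were counted. UPF3B and UPF3A overlapped, and from SMG1 down each neighbouring pair lay within 2 SD. By these counts all 9 stood between the 66.3rd percentile of all genes tested (SMG6) and the 93.1st (SMG5).

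After UPF1 siRNA SMG5 was still highest at 56.3 ± 2.24 CPM per kilobase and UPF1 was last at 13.0 ± 2.31 (SD, n = 2 each). UPF3B (44.1), SMG1 (41.8), SMG9 (40.0), UPF3A (37.4), UPF2 (35.6), SMG6 (31.4) and SMG8 (23.8) lay between in CPM per kilobase. SMG9 thus moved from the seventh to the fourth level, but its gap to UPF3A was within 2 SD, as was that of UPF3B to SMG1. Levels of SMG9 per kilobase rest on a length of 2345 bases, whereas the annotated transcript found for it has 5510. UPF3A and UPF2 overlapped, while SMG6, SMG8 and UPF1 each stood below the gene above by more than 2 SD. UPF2 transcripts stood at 0.775 and 0.744 times UPF1 in the controls and at 3.25 and 2.33 times in siUPF1 replicates 1 and 2, a ratio set mostly by UPF1. Transcript levels do not give protein levels, and in RNA from a culture fewer cells with a transcript and less of it per cell cannot be told apart.

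**Figure D5:**
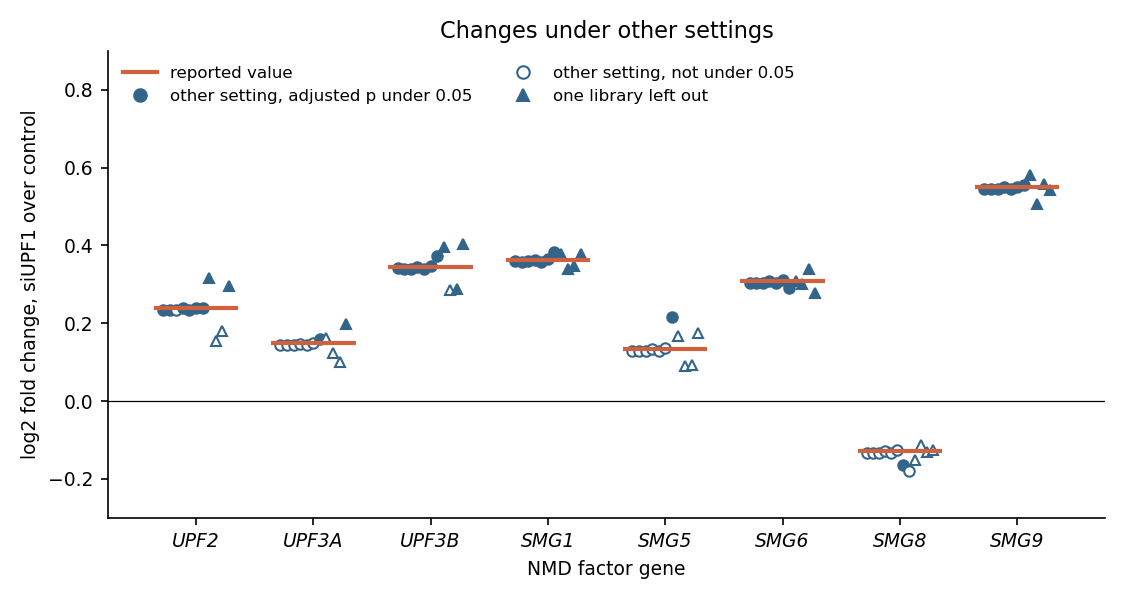
Log2 fold change of siUPF1 over control (vertical axis) of the 8 factors other than UPF1 under each alternative setting (points) and as reported (orange bars). Filled points have an adjusted p under 0.05 and triangles leave out 1 library. SMG1, SMG6 and SMG9 are filled throughout, and no factor changes sign.

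Features that can expose a transcript to NMD were read from GENCODE release 29 for the annotated transcript nearest in length to that behind the deposited RPKM. For 8 of the 9 genes the lengths agreed within 10%, and for SMG9 they did not (5510 against 2345 bases), so its features are not used. No stop codon of the 8 lay more than 50 bases ahead of the last exon junction, the classical NMD signal, which was present in 1.32% of 10169 coding genes compared in the same way. An upstream AUG in the 5′ UTR was annotated for UPF2, SMG1 and SMG5 (1 each) and not for UPF1, UPF3A, UPF3B, SMG6 or SMG8, where 50.8% of the coding genes had one. Only SMG1 had a 3′ UTR in the upper quartile (at least 2238 bases), with 4716 bases. UPF1 had 1719, SMG6 1649, SMG5 1363, UPF2 1276, UPF3A 900 and UPF3B 856 bases, and SMG8 had the shortest at 245, with a median of 1062 over the coding genes. SMG8, the one factor besides UPF1 that was lower, did not pass the test. It had 4 exons, against 10 to 63 in the other 7. Whether any of these features bears on the change of a factor was not tested. None of the 3 features was common to all of the risers UPF2, UPF3B, SMG1 and SMG6. UPF2 and SMG1 had the upstream AUG, SMG1 also had the long 3′ UTR, and UPF3B and SMG6 had neither. The riser SMG9 is not covered. Splice variants that carry such signals cannot be seen in counts per gene.

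Of 30 other genes of the pathway, in 4 lists, 3 rose, 2 fell and 25 did not pass, with a median log2 fold change of -0.08. Of all genes tested 16.8% rose and 9.14% fell, and the difference from these shares was not tested. The counts moved with the setting. With the read-density trend removed 5 of the 30 rose and 2 fell, where 13.9% of all genes tested rose and 13.3% fell. In DESeq2 1 rose and 1 fell (8.35% and 3.05% of all genes tested). The counts also moved when 1 library was left out. Among 6 exon junction complex genes, MAGOHB, one copy of the core subunit MAGOH, rose by 0.28 (SE 0.09), and the helicase gene EIF4A3 stood at -0.18 (SE 0.07) and did not pass. Among 10 accessory genes the helicase gene MOV10 rose from 86.3 ± 2.38 to 111 ± 1.0 CPM (SD, n = 2 in each group), with a log2 fold change of 0.36 (SE 0.07), and GNL2, a nucleolar GTPase gene, stood at -0.16 (SE 0.07) and did not pass.
Of 6 genes of translation termination and the mRNA ends, the release factor gene GSPT2 fell from 95.9 ± 2.75 to 77.1 ± 1.45 CPM (SD, n = 2 in each group), with a log2 fold change of -0.31 (SE 0.07). PABPC1, the cytoplasmic poly(A)-binding protein gene, also fell, by 0.22 on the log2 scale (SE 0.07), but stood at -0.08 after removal of the read-density trend (adjusted p = 0.164, edgeR quasi-likelihood test, with a lowest value of 0.00124 over 11 alternatives). It also did not pass in DESeq2 (adjusted p = 0.0601), without control a (-0.16, adjusted p = 0.34) or without siUPF1 replicate 2 (-0.15, adjusted p = 0.168, both by edgeR's quasi-likelihood test). Of 8 genes of mRNA degradation and dephosphorylation, the exonuclease gene XRN1 rose by 0.28 (SE 0.08), and the phosphatase scaffold gene PPP2R1A stood at -0.16 (SE 0.07) and did not pass. MOV10 and GSPT2 passed in all 11 alternatives, GSPT2 only narrowly without control a (adjusted p = 0.05, edgeR quasi-likelihood test, with a lowest value of 0.000234). MAGOHB and XRN1 did not pass in DESeq2 or when either control was left out.

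The genes with the profile most like that of UPF1 over the 4 libraries were sought among those at a mean of at least 5 CPM, by Euclidean distance between log2 levels centred on each gene's mean. They were LRRC55 (distance 0.158), LMO3 (0.173), DPEP1 (0.229), LOC101926975 (0.257) and IL2RB (0.325). LRRC55 kept 26.2% and 33.7% of its control level in siUPF1 replicates 1 and 2, and LMO3, a LIM-only factor gene, kept 24.2% and 36.3%. In these libraries LRRC55 had 68 and 98 counts (counting error 12.1% and 10.1%) and LMO3 had 92 and 155 (10.4% and 8.03%). The genes were picked for this likeness, so it was not tested. All 5 were at lower levels than UPF1, the most abundant being LMO3 at 38.1 CPM in the controls.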

How the data were processed

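H9 cell RNA was extracted with Trizol and sequenced from standard Illumina libraries, per the labels' protocols. The authors deposited raw read counts per gene, not normalized, and RPKM values in the same table. The submitters' processing notes name STAR, DESeq2 and the build hg19. Aligner settings, strand use and the treatment of multimapping or repeated reads are not given in the sources used here. Transcript lengths were derived from the siUPF1 RPKM values, used for nothing else, and 2 control RPKM columns that could not be tied to a library were not used.

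Counts were tested with edgeR 4.0.16 (glmQLFit and glmQLFTest, two-sided, TMM, filterByExpr, 385 genes left out) in R 4.3.3, over 15557 genes, with Benjamini-Hochberg adjustment at 0.05. The SE is the log2 fold change divided by the square root of F, and 95% intervals are 1.96 SE to each side. On simulated data for siUPF1 against siLuc (15557 genes, 200 changed), 93% of 2-fold and 74% of 1.41-fold changes were recovered, with 6 false calls. The simulation used dispersions fitted to these same data, changed far fewer genes than were called here and held no trend on read density. UPF2, UPF3B, SMG1 and SMG6 rose by less than 1.41-fold, so these figures do not give the recovery or error rate of their calls. Control libraries differed from each other by more than counting noise (chi-square per degree of freedom 1.71, and 2.88 between siUPF1 libraries). Counting error is 1.16% to 4.15% for the 9 factors. Alternatives were DESeq2 1.42.0, limma-voom (limma 3.58.1), scaling by RLE or by library size alone, no filter, 5 CPM in 2 libraries, an adjusted p of 0.1, each library left out, a loess trend on reads per base removed (span 0.3), and genes under 0.25 reads per base only.

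The members and lists were chosen with earlier results of these data known. Named were the 9 factors, the 2 smallest p in each of 4 pathway lists and the 5 genes nearest to UPF1 (0.5 added to CPM before log2). SMG1 pseudogenes were added after their values were seen. Chromosomes and transcript features come from GENCODE release 29 (GRCh38), without coordinates, since the table was made on hg19.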

Additional observations from a re-analysis of the deposited data

How the results depend on the processing

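UPF1 and the 8 other factors kept their direction in every alternative run. The 5 rising factors became 3 without control b, with 3 to 6 over the libraries left out, and 1 falling factor (SMG8) appeared once the trend on read density was removed. Only SMG8 had under 0.25 reads per base, so that alternative gave no count of factors. Of the 30 other pathway genes, 1 rose in DESeq2 and 5 with the trend removed, where 8.35% and 13.9% of all genes tested rose. Fallers among them numbered 4 with library size alone, 1 in DESeq2 and 5 at an adjusted p of 0.1. Over all genes 1539, 467 and 2026 fell in these settings. Risers and fallers among the 30 also changed in number when a library was left out. Over all genes DESeq2 called 1280 up and 467 down, genes under 0.25 reads per base gave 1682 up, and leaving out a library gave 1444 (without control a) to 2764 up and 552 (without control a) to 1522 down, with 1583 and 610 without control b. No paired analysis was possible because the control columns carry no replicate numbers.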
